A study of Homo sapiens with 6 samples.

Results

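The S100 proteins are small calcium-binding proteins, and 10 of the 17721 genes in the table were taken as the family here: S100A2, S100A3, S100A4, S100A6, S100A10, S100A11, S100A13, S100A14, S100A16 and S100P. They were chosen by gene symbol, with the comparison of ACSS2 shRNA and control shRNA cells already known, so their values in that comparison are a description and support nothing further. All 10 had reads, and 9 passed the filter on low counts. S100A14 did not. The cells were MDA-MB-231BR, a brain-tropic derivative of the human triple-negative breast cancer line MDA-MB-231, grown as monocultures. In 3 libraries the cells stably expressed ACSS2 shRNA, against the enzyme that makes acetyl-CoA from acetate, and in 3 they stably expressed Control shRNA, also called shSCR in the labels. Both groups received their hairpin by lentivirus packaged in HEK-293T cells, followed by antibiotic selection. The labels call the libraries biological replicates and give each a batch tag, Rep1 to Rep3, in both groups. They do not say how many different hairpins the numbers stand for, nor that any library is a clone.

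S100 proteins mostly work as dimers. Each subunit has a pair of EF-hands, helix-loop-helix motifs that bind calcium, and calcium exposes a surface that grips a partner such as an annexin or myosin. Some are also released and act on cell-surface receptors such as AGER (RAGE). Most S100 genes sit in a cluster on the long arm of chromosome 1, and in breast cancer the family is best known through S100A4, a protein tied to cell motility and metastasis.

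S100A16 was the member whose transcript fell, and S100A10 and S100A11 were the abundant members whose transcripts rose in the fit that takes the replicate number into account. Their promoters are shown because these genes lie in the same cluster and moved in opposite directions. Each stretch runs from 250 bases before to 50 bases after a RefSeq start on GRCh38.p14 and is read on the minus strand of chromosome 1, with matches to the searched motifs in capitals. S100A16 has a pair of annotated starts, with the stretches chr1:153613088-153613387 and chr1:153609306-153609605. The stretches of S100A10 and S100A11 are chr1:151993810-151994109 and chr1:152036955-152037254.
S100A16, upstream start: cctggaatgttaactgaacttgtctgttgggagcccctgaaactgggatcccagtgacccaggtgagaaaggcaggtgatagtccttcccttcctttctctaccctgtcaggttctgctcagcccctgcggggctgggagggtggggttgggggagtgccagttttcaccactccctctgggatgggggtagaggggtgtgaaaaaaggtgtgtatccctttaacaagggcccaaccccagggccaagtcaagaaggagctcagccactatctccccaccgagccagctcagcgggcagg
S100A16, downstream start: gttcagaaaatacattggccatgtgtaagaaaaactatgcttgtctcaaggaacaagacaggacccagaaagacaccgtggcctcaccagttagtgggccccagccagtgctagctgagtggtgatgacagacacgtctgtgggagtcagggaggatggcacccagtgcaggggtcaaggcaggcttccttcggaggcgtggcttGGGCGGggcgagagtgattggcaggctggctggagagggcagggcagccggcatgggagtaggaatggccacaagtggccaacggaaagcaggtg
S100A10: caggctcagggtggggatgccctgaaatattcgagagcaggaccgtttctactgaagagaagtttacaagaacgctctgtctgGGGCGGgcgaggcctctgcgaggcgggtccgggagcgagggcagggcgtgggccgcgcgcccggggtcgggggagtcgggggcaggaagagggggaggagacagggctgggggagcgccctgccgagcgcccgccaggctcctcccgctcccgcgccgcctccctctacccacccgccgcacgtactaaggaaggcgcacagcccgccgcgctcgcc
S100A11: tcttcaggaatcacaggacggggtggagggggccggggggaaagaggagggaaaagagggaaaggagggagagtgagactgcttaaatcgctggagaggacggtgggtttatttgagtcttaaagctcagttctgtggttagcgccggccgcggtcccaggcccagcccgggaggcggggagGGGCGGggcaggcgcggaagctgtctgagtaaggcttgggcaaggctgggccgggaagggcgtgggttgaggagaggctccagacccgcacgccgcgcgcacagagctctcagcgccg

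The motifs searched on both strands were the GC box (GGGCGG), AP-1 (TGANTCA), the TATA box (TATAAA) and an E2F-like site (TTTNNCGC). S100A10 and S100A11 each hold a GC box, which begins 167 bases before the start of S100A10 and 68 bases before that of S100A11. The downstream start of S100A16 has a GC box 45 bases before it, and the upstream start has a match to none of the motifs. S100A3, S100A6 and the most upstream start of S100A13 also have a GC box. A GC box is found in 45% of all 35116 RefSeq promoters of this length, so it does not set these genes apart. AP-1 matches were found in S100A3 (225 bases before the start) and at the upstream start of S100A2 (52 bases before it), against 7.71% of all promoters. The other listed start of S100A2 has none. TATAAA was found close to the start of S100A4 (31 bases before it), S100P (28 bases before it) and 1 of the 3 listed starts of S100A13 (29 bases before it), against 11.5%. None of the promoters of the 10 members holds the E2F-like letters, which 6.89% of all promoters do. The shares count promoters and not genes, and nothing further is read from the matches. A match is a match of letters and not a bound site, and a missing match says nothing about the factor.

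Another short sequence is shown with its place in S100A16. TGGGTC, a 6-base sequence picked in earlier work on these data after the results were known, occurs in the longest annotated 3′ UTR (GENCODE v29) of S100A16 and of no other member. It lies at base 335 of 648, here in capitals within 30 bases.
S100A16, 3′ UTR: cctgcctgattcTGGGTCcgtcctgacctc
The longest 3′ UTRs of the other members measure between 96 bases (S100A13) and 630 bases (S100A14), and 3714 of 12789 tested genes (29%) hold the sequence. It was picked on these data, and the 3′ UTR of S100A16 is the longest of the members, so nothing is read from the match. What the sequence does was not tested.

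The knockdown was checked first. ACSS2 (gene ID 55902, chromosome 20, 34866614 to 34955813) had 11.1, 50.5 and 88.7 CPM (counts scaled by TMM-adjusted library size) in ACSS2 shRNA replicates 1, 2 and 3, against 76.3, 71.2 and 163.6 CPM in control replicates 1, 2 and 3. It was lower in each ACSS2 shRNA library than in the control library of the same number, but the groups overlap. The log2 fold change, ACSS2 shRNA over control shRNA, was -1.05 (SE 0.64, edgeR adjusted p = 0.504) without the replicate number and -1.31 (SE 0.30, adjusted p = 0.00757) with it as a block. DESeq2 with the block gave -1.38 (adjusted p = 0.129), and edgeR with the block gave -0.70 (adjusted p = 0.00249) when replicate 1 was left out. Totals were between 15048275 and 18608104 counts per library, at which 3 counts equal 0.167 to 0.194 CPM. All 10 markers fixed for MDA-MB-231 cells exceeded 1 TPM in every library. Of the 6 genes listed as absent or low in these cells, ESR1, GATA3, FOXA1 and ERBB3 exceeded 1 TPM in at least 1 library, and the 6 summed to 19.6 to 30.3 TPM in ACSS2 shRNA and 20.95 to 30.5 TPM in control libraries. Summed markers of other cells were 32.5 to 77.4 against 42.6 to 95.9 TPM for brain cells (7 of 8 in the table, with RBFOX3 and MBP above 1 TPM) and 8.05 to 18.4 against 4.19 to 5.79 TPM for fibroblasts (5 of 5 in the table, with COL1A1 above 1 TPM), ACSS2 shRNA first. They were 3.67 to 7.41 against 1.63 to 4.36 TPM for leukocytes (6 of 7, CD14) and 2.76 to 7.44 against 1.81 to 2.50 TPM for endothelial cells (5 of 5, PECAM1 and CDH5), in the same order, and no marker in the table was at 0 in every library. The markers named for these cells exceeded 1 TPM in at least 1 library. In every library 1 brain, 1 fibroblast, 1 endothelial and 0 leukocyte markers did. Their part in the S100 values was not tested.

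S100A16 had the largest change of the 9 tested members. With the replicate block 3 members rose (S100A3, S100A10 and S100A11), 1 fell (S100A16) and 5 did not pass the test. Over all 13003 genes tested, the block fit called 25.1%, with 12.7% higher and 12.4% lower. Without the block it called 1 member, S100A16, and 9 genes in all (0.0692%), while 1820 genes and 2 members had an unadjusted p under 0.05. DESeq2 without the block called 487 genes and, of the members, S100A16. The groups did not overlap in CPM for 2 members, S100A10 and S100A16, against 20.3% of all genes tested. Because the members were chosen with this comparison known, nothing is read from these shares. The median log2 fold change of the 9 tested members was 0.08 in both fits, against 0.02 over all genes. On the TPM scale the median over all genes was 0.11 or 0.12 by pseudocount, so TPM differences below are shifted upward by about that amount. In bulk RNA, fewer cells expressing a gene and less RNA per cell cannot be told apart.

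The summed level of the family was higher in ACSS2 shRNA than in control libraries in replicate numbers 1 and 2, and in number 3 the direction depended on the scale. Per length, the 10 members summed to 9940, 8735 and 6791 TPM in ACSS2 shRNA replicates 1, 2 and 3, against 7167, 6060 and 6442 TPM in control replicates 1, 2 and 3. That is 0.994%, 0.873% and 0.679% of all TPM in the ACSS2 shRNA libraries and 0.717%, 0.606% and 0.644% in the control libraries. As a share of all counts the family held 0.312%, 0.281% and 0.221% in ACSS2 shRNA replicates 1, 2 and 3, against 0.245%, 0.212% and 0.226% in control replicates 1, 2 and 3. In number 3 the ACSS2 shRNA library was thus lower on counts, and its higher TPM sum was within the upward shift of the TPM scale given above. The groups overlap on both scales, since ACSS2 shRNA replicate 3 lay below control replicate 1. S100A11, S100A6 and S100A10 together held 96.3%, 96.0% and 95.7% of the family's TPM in ACSS2 shRNA replicates 1, 2 and 3, and 91.0%, 90.7% and 89.9% in the control libraries.

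In TPM the order of the members was the same in both groups. S100A11 stood at the top with 4633 ± 1213 TPM in ACSS2 shRNA and 3028 ± 475 TPM in control cells (SD, n = 3 each), rank 21 and rank 44 among all genes. S100A6 followed with 2649 ± 118 TPM and 2333 ± 98.3 TPM, in the same order, and S100A10 with 869 ± 234 TPM and 575 ± 51.6 TPM. S100A16 had 194 ± 12.97 TPM in ACSS2 shRNA cells and 502 ± 41.1 TPM in control cells, rank 780 and rank 256. Below it came S100A13 with 91.4 ± 12.1 TPM in ACSS2 shRNA and 79.3 ± 1.80 TPM in control cells and S100A3 with 32.9 ± 19.4 TPM and 20.4 ± 10.6 TPM. S100A4, S100A2 and S100P all averaged under 10 TPM. The ranges of neighbours in this order overlapped for S100A4 with S100A2 and for S100A2 with S100P, in both groups. Neither pair is thus ordered beyond its spread. The other neighbours did not overlap, but S100A10 and S100A16 nearly met in control cells. There the lowest S100A10 value was 536.66 TPM and the highest S100A16 value 536.53 TPM. S100A14 was at the bottom.

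**Figure D1:**
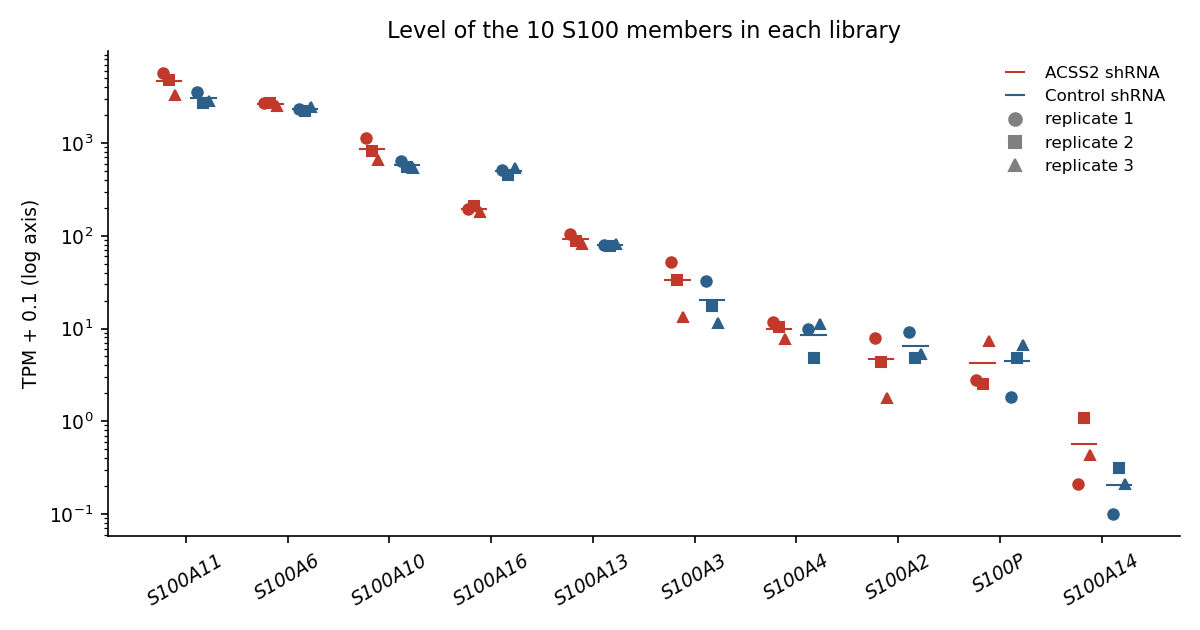
TPM plus 0.1 on a log axis for the 10 members, with ACSS2 shRNA (red) left of control shRNA (blue), points for replicates 1 to 3 and bars for group means. The family spans from S100A11, at 4633 TPM in ACSS2 shRNA and 3028 TPM in control cells, down to S100A14 under 1 TPM, and S100A16 is clearly apart between the groups.

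S100A16 (gene ID 140576, chromosome 1, 153606883 to 153613137 in RefSeq, band 1q21.3) codes for a broadly expressed S100 protein that can pair with S100A14. It had 2112, 1982 and 1944 counts in ACSS2 shRNA replicates 1, 2 and 3, against 6212, 5116 and 5693 counts in control replicates 1, 2 and 3. As CPM these were 117.6, 124.6 and 120.6 in ACSS2 shRNA and 353.8, 291.7 and 367.7 in control libraries. The ACSS2 shRNA libraries lay within a narrow band far below every control library. The mean was 121 ± 3.51 CPM in ACSS2 shRNA and 338 ± 40.4 CPM in control cells (SD, n = 3 each), 2.79-fold lower. The log2 fold change reached -1.48 (SE 0.16, edgeR adjusted p = 0.0294) without the block and -1.48 (SE 0.12, adjusted p = 1.67e-05) with it, and the differences within replicate numbers 1, 2 and 3 were -1.59, -1.23 and -1.61. Leaving out any 1 library ended the call without the block (adjusted p from 0.0621 to 0.274), with values from -1.61 to -1.42. Leaving out any replicate number kept the call with the block (-1.63 to -1.41). In the authors' deposited table the log2 fold change was -1.51 (q = 4.89e-12), and S100A16 was the only member at q under 0.05.

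S100A16 made up 1.94%, 2.37% and 2.67% of the family's TPM in ACSS2 shRNA replicates 1, 2 and 3, and 7.16%, 7.53% and 8.33% in control replicates 1, 2 and 3. The TPM ratio of S100A10 over S100A16 was 5.80, 4.00 and 3.63 in ACSS2 shRNA replicates 1, 2 and 3, against 1.23, 1.21 and 1.00 in control replicates 1, 2 and 3, where the 2 genes were close. The lowest ACSS2 shRNA ratio exceeded the highest control ratio. That adds nothing new, since S100A10 and S100A16 each separate the groups, in opposite directions. The span the table gives S100A16 counts transcripts that RefSeq does not carry: it is 66305 bases long, against 6255 in RefSeq, and overlaps the spans of S100A2 (32770 bases) and S100A3 (1926 bases). The division of reads between overlapping transcripts is not stated in the labels or headers, so reads of these 3 members could be shared.

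S100A10 and S100A11 lie next to each other on chromosome 1 and both rose with the block, by similar amounts. S100A10 (gene ID 6281, chromosome 1, 151982915 to 151993859 in RefSeq) codes for p11, an S100 protein that no longer binds calcium and that joins annexin A2 at the plasma membrane, where the pair helps plasminogen to become plasmin. It had 576.9, 428.7 and 374.4 CPM in ACSS2 shRNA replicates 1, 2 and 3, against 373.4, 301.6 and 316.2 CPM in control replicates 1, 2 and 3. The groups do not overlap, but ACSS2 shRNA replicate 3 was at nearly the same level as control replicate 1. With the block S100A10 was 1.38-fold higher (log2 fold change 0.46, SE 0.12, edgeR adjusted p = 0.0170) and the value was 0.48 (SE 0.20, adjusted p = 0.350) without it. The differences within replicate numbers 1, 2 and 3 were 0.63, 0.51 and 0.24, so all 3 pairs were higher.

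S100A11 (gene ID 6282, chromosome 1, 152032506 to 152037004 in RefSeq) codes for a partner of annexin A1 that acts in membrane repair and growth control. It had 1564, 1341 and 1009 CPM in ACSS2 shRNA replicates 1, 2 and 3, against 1115, 782.5 and 884.8 CPM in control replicates 1, 2 and 3. The groups overlap because control replicate 1 lay above ACSS2 shRNA replicate 3. S100A11 was 1.40-fold higher with the block (log2 fold change 0.48, SE 0.14, edgeR adjusted p = 0.0258), and the log2 value without it was 0.49 (SE 0.22, adjusted p = 0.365), with differences of 0.49, 0.78 and 0.19 within replicate numbers 1, 2 and 3. Both calls were lost without replicate 2, where S100A10 stood at 0.40 (adjusted p = 0.195) and S100A11 at 0.30 (adjusted p = 0.427).

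S100A6, the other abundant member, did not pass the test in either fit. S100A6 (gene ID 6277, chromosome 1, 153534599 to 153535991 in RefSeq), or calcyclin, binds CACYBP, SUGT1 and several annexins. It had 724.9, 718.1 and 729.9 CPM in ACSS2 shRNA replicates 1, 2 and 3, against 703.5, 625.4 and 737.8 CPM in control replicates 1, 2 and 3. The ACSS2 shRNA libraries were almost equal and lay inside the control range of CPM, although on the TPM scale all of them (2513 to 2721) lay above the control libraries (2243 to 2438). The log2 fold change in the block fit was 0.08 (SE 0.12, edgeR adjusted p = 0.691). The TPM ratio of S100A11 over S100A6 was 2.10, 1.79 and 1.32 in ACSS2 shRNA replicates 1, 2 and 3 and 1.54, 1.20 and 1.15 in control replicates 1, 2 and 3.

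**Figure D2:**
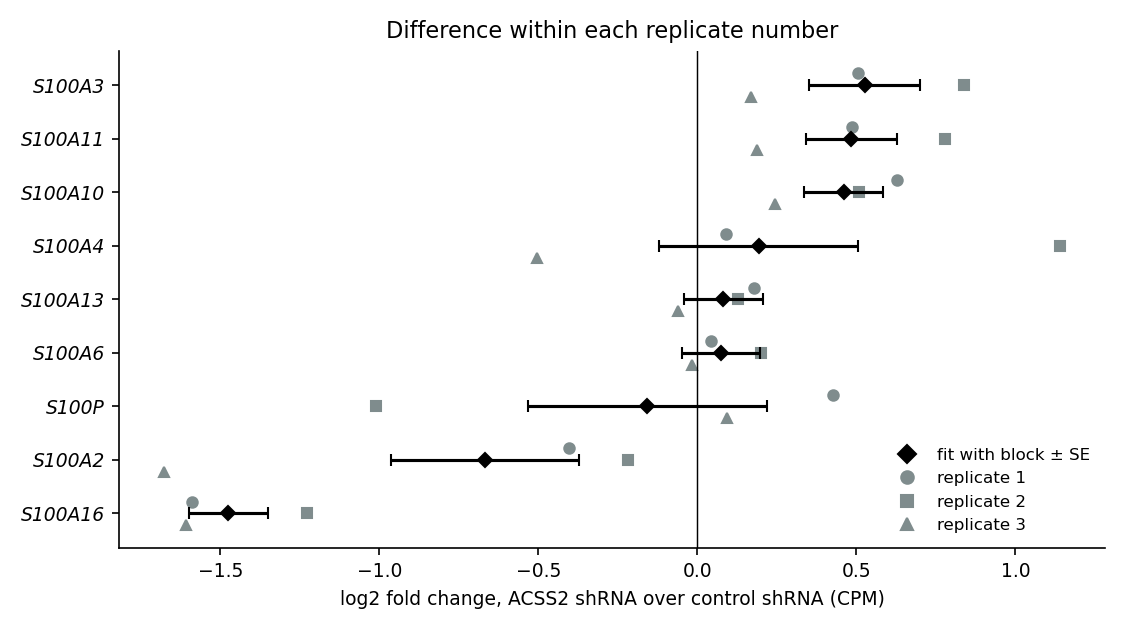
Log2 fold change of CPM, ACSS2 shRNA over control shRNA, within each replicate number (grey) and in the edgeR fit with the replicate block (black diamonds, ± SE), for the 9 tested members. S100A16 lies between -1.61 and -1.23 in the 3 pairs, S100A3, S100A10 and S100A11 lie above 0 in all 3, and S100A4 and S100P fall on both sides of 0.

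S100A3 (gene ID 6274, chromosome 1, 153547329 to 153549258 in RefSeq) codes for a cysteine-rich S100 protein best known from the hair cuticle. It had 18.2, 11.6 and 5.15 CPM in ACSS2 shRNA replicates 1, 2 and 3, against 12.8, 6.50 and 4.59 CPM in control replicates 1, 2 and 3. In both groups it was highest in number 1 and lowest in number 3, and the groups overlap widely. The log2 fold change reached 0.53 (SE 0.17, edgeR adjusted p = 0.0418, 1.44-fold) with the block and 0.55 (SE 0.51, adjusted p = 0.680) without it, and all 3 pairs were higher (0.51, 0.84 and 0.17). The call is at the edge of the threshold: with the block it was lost under RLE normalization (0.50, adjusted p = 0.0541), with DESeq2 (0.49, adjusted p = 0.145), without replicate 1 (0.54, adjusted p = 0.116) and without replicate 2 (0.33, adjusted p = 0.389).

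S100A2 (gene ID 6273, chromosome 1, 153561108 to 153565844 in RefSeq), whose protein is common in basal epithelium, was low. It had 65, 32 and 14 counts in ACSS2 shRNA replicates 1, 2 and 3, against 84, 41 and 43 counts in control replicates 1, 2 and 3. Every pair was lower, mostly in number 3 (-0.40, -0.22 and -1.68 on the log2 scale), and the groups overlap. The log2 fold change of -0.67 (SE 0.30, edgeR adjusted p = 0.116) with the block did not pass, and without replicate 3 it was -0.32 (adjusted p = 0.527).

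S100A13, S100A4 and S100P passed in neither fit. S100A13 (gene ID 6284, chromosome 1, 153618799 to 153634361 in RefSeq), which helps release FGF1 from cells, had 31.95, 26.5 and 26.9 CPM in ACSS2 shRNA replicates 1, 2 and 3, against 28.2, 24.3 and 28.1 CPM in control replicates 1, 2 and 3, with a log2 fold change of 0.08 (SE 0.12, edgeR adjusted p = 0.665) with the block. S100A4 (gene ID 6275, chromosome 1, 153543621 to 153545806 in RefSeq), or metastasin, which binds non-muscle myosin, had 49, 40 and 33 counts in ACSS2 shRNA replicates 1, 2 and 3, against 45, 20 and 45 counts in control replicates 1, 2 and 3. Its pairs went both ways (0.09, 1.14 and -0.51), and the fit with the block gave 0.19 (SE 0.31, adjusted p = 0.691). The span the table gives S100A6 is 44197 bases long, against 1393 in RefSeq, and overlaps that of S100A4 over 629 bases. Reads of the far more abundant S100A6 could thus be shared with S100A4. S100P (gene ID 6286, chromosome 4, 6693878 to 6697170 in RefSeq, band 4p16.1), which activates ezrin and can act on RAGE, had 11, 9 and 30 counts in ACSS2 shRNA replicates 1, 2 and 3, against 8, 20 and 27 counts in control replicates 1, 2 and 3. With the block it stood at -0.16 on the log2 scale (SE 0.38, adjusted p = 0.794). The intervals of S100A4 and S100P are wide at these counts, so a difference of the size seen for S100A10 was not detectable in them.

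S100A14 (gene ID 57402, chromosome 1, 153614255 to 153616325 in RefSeq), an epithelial S100 protein, had 1, 8 and 3 counts in ACSS2 shRNA replicates 1, 2 and 3, against 0, 2 and 1 counts in control replicates 1, 2 and 3. With 8 counts at most, it was not tested, and no fold is given. In the authors' deposited table its log2 fold change was 2.04 (q = 0.791), and those of S100A10 and S100A11 were 0.45 (q = 0.456) and 0.46 (q = 0.483). Its span in the table overlaps that of S100A13 over 2661 bases.

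The members were chosen with their values by replicate number known, so their differences between numbers are given as a description. In the additive model with group, 3 of the 9 tested members differed between replicate numbers (S100A2, S100A3 and S100P), against 38.7% of all genes tested, and nothing is read from that share. S100A3 was 3.15-fold higher in number 1 than in number 3 (edgeR F test over the numbers, adjusted p = 0.00038) and S100A2 2.42-fold higher in number 1 (adjusted p = 0.0254). S100P ran the other way and was 3.34-fold higher in number 3 than in number 1 (adjusted p = 0.0225). S100A2 was highest in number 1 and S100P in number 3 in both groups. S100A10 (adjusted p = 0.0614) and S100A11 (adjusted p = 0.0845) did not pass, but did with the likelihood ratio test of DESeq2 (adjusted p = 0.0272 and 0.0352), by which S100A2 and S100P did not pass (adjusted p = 0.0734 and 0.149). S100A16 (adjusted p = 0.692) and S100A6 (adjusted p = 0.735) stood at -0.05 and -0.04 on the log2 scale, number 1 minus number 3, and did not pass. ACSS2 itself differed between the numbers (adjusted p = 0.00504).

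**Figure D3:**
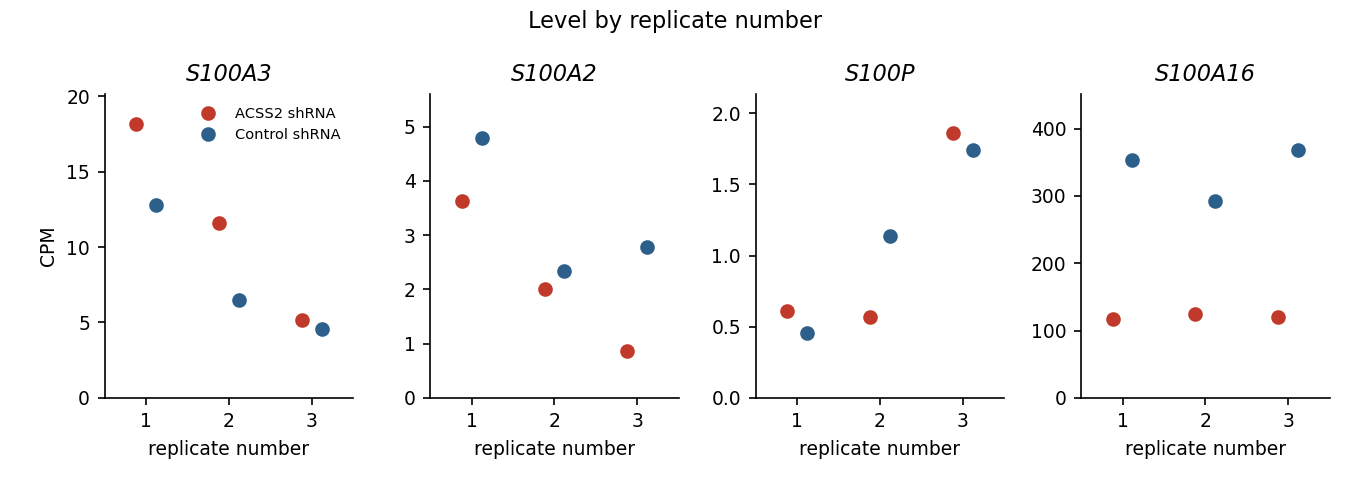
CPM by replicate number for 4 members, with ACSS2 shRNA (red) left of control shRNA (blue) and 1 point per library, on axes that start at 0. S100A3 and S100A2 are highest in number 1, S100P is highest in number 3, and S100A16 is lower in ACSS2 shRNA than in control libraries at each number.

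By RefSeq, 9 of the members lie on chromosome 1 within 1651 kb, all on the minus strand, and S100P lies alone on chromosome 4. Within 250 kb of a member the table holds 32 other genes, of which 20 were tested. With the block 3 of these rose, 2 fell and 15 did not pass, with a median log2 fold change of 0.06, against 0.02 for all genes. Of all genes tested the block fit called 25.1%, and nothing is read from the counts of the neighbours. NPR1, the receptor for atrial natriuretic peptide, rose by 1.15 (SE 0.19, edgeR adjusted p = 0.00118). In NPR1 the groups overlap, and replicate numbers 1 and 3 differed 2.03-fold, against 2.22-fold between groups with the block. Near S100P on chromosome 4, KIAA0232 rose by 0.93 and MAN2B2, a lysosomal mannosidase gene, by 0.69, while MRFAP1 fell by 0.74 on the log2 scale. On chromosome 1 the only other neighbour called was MRPL9, which codes for a mitochondrial ribosomal protein. S100A16 and S100A3 lie close together and were called in opposite directions with the block. The S100A3 call was at the edge of the threshold. The span the table gives S100A16 also holds all of S100A3, so reads could be shared between them.

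**Figure D4:**
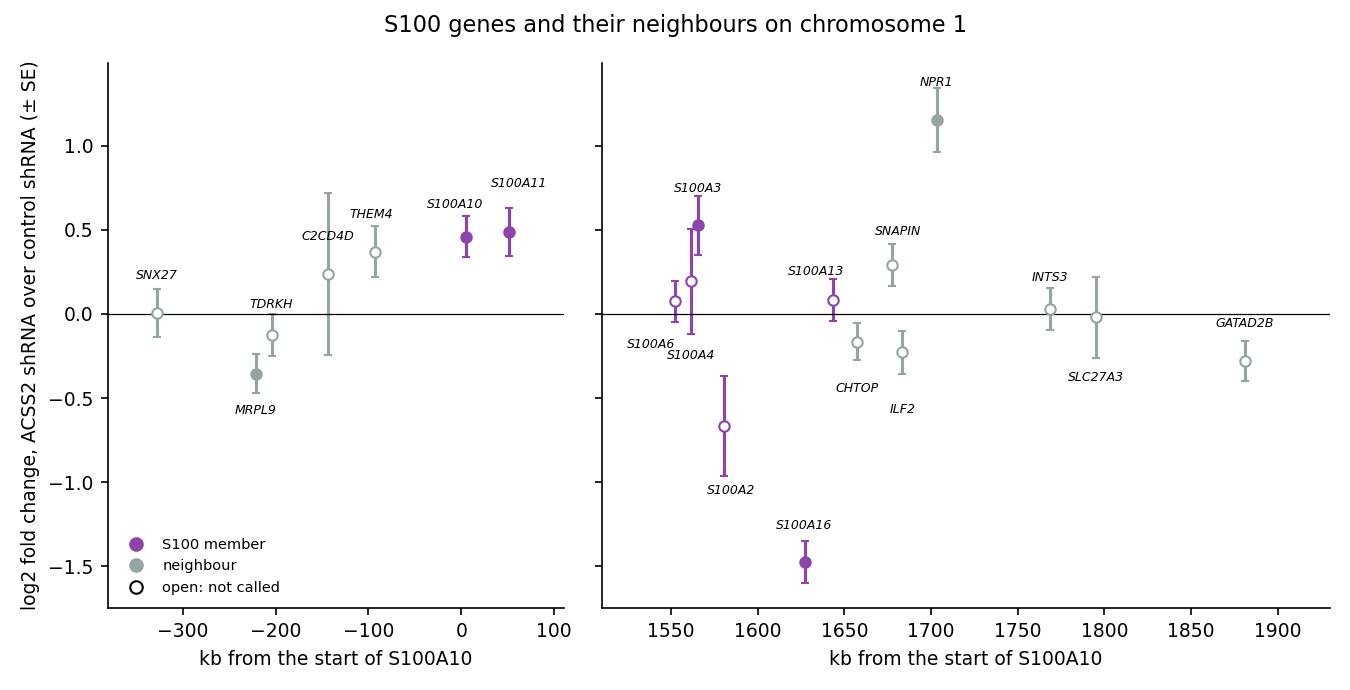
Log2 fold change (± SE, fit with the replicate block) of the tested members (purple) and their tested neighbours (grey) on chromosome 1, by distance in kb from the start of S100A10, with filled points called and open points not called. S100A10 and S100A11 sit side by side near 0.46 and 0.48, and S100A16 at -1.48 stands among genes that moved less.

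The other S100 genes were nearly silent. Of 12 on the list, 8 were in the table and 7 had reads. S100A5, which neighbours S100A4 and S100A6, had 8, 7 and 6 counts in ACSS2 shRNA replicates 1, 2 and 3, against 9, 11 and 10 counts in control replicates 1, 2 and 3. S100Z had at most 6 counts in a library, S100A1, S100A8, S100A9 and S100B at most 2, and S100A12 had 0 in all 6, which allows up to 3 counts per library. S100PBP, which codes for a protein that binds S100P and is no S100 protein itself, was the 1 gene of this list that was tested. It had 24.4 ± 4.83 CPM in ACSS2 shRNA and 17.1 ± 2.92 CPM in control cells (SD, n = 3 each), and the groups overlap. With the block S100PBP rose by 0.51 (SE 0.13, edgeR adjusted p = 0.0143), a call lost without replicate 2 (0.38, adjusted p = 0.199). None of the 7 fused-type S100 genes of the skin barrier, such as FLG, passed the filter on counts.

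Annexin A2, the partner of S100A10, moved the opposite way. ANXA2 is named here after its values were seen. It had 1738, 1544 and 1719 CPM in ACSS2 shRNA replicates 1, 2 and 3, against 2429, 3051 and 2997 CPM in control replicates 1, 2 and 3, so all ACSS2 shRNA libraries lay below all control libraries. In the block fit ANXA2 was 1.69-fold lower (log2 fold change -0.76, SE 0.15, edgeR adjusted p = 0.00293), and the log2 value without the block was -0.76 (SE 0.17, adjusted p = 0.118). Without replicate 2 the block fit gave -0.68 (adjusted p = 0.0715). The TPM ratio of S100A10 over ANXA2 was 0.502, 0.411 and 0.327 in ACSS2 shRNA replicates 1, 2 and 3 and 0.233, 0.148 and 0.158 in control replicates 1, 2 and 3, with no overlap. The missing overlap follows from S100A10 and ANXA2 each separating the groups, in opposite directions. ANXA2 has processed pseudogenes with near-identical sequence, between which reads can be shared, and transcript ratios do not measure the protein complex.

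Among 22 genes whose proteins bind S100 proteins inside cells, 2 rose, 5 fell and 15 did not pass with the block, with a median log2 fold change of -0.07. Of all genes tested the block fit called 25.1%, and their median was 0.02. Nothing is read from the counts or medians of this list and the lists below. Over all the lists described here and the neighbours, 104 genes were tested, of which edgeR without the block called 0, DESeq2 without the block 8, and 19 had an unadjusted edgeR p under 0.05. TGM2, a transglutaminase that crosslinks proteins, rose by 2.27 (SE 0.30, edgeR adjusted p = 0.000277), with 13.96 ± 7.84 CPM in ACSS2 shRNA and 2.85 ± 1.60 CPM in control cells (SD, n = 3 each). NDRG1, a stress-induced gene, rose by 1.06 (adjusted p = 0.00615). The call was lost with DESeq2, where the value was nearly as large (1.03, SE 0.46, adjusted p = 0.102), and without replicate 2 (0.59, adjusted p = 0.116). SYT1, which joins S100A13 in the release of FGF1, fell by 1.44 on the log2 scale (adjusted p = 0.000793). In SYT1 and NDRG1 the groups overlap, and replicate numbers 1 and 3 differed 4.07-fold and 2.78-fold. Between groups, with the block, the folds were smaller, at 2.72 and 2.08.

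Among 10 surface receptors of S100 proteins, 8 were tested, of which 1 rose, 1 fell and 6 did not pass with the block, with a median of 0.17. Over all genes tested, 25.1% were called and the median was 0.02. BSG (basigin), a receptor for S100A9, had 706 ± 180 CPM in ACSS2 shRNA and 1109 ± 196 CPM in control cells (SD, n = 3 each) and fell by 0.66 on the log2 scale (edgeR adjusted p = 0.0104). Its relative NPTN (neuroplastin), a receptor for S100A8, rose by 0.34 (adjusted p = 0.0450), a call at the edge of the threshold. It was lost at a nearly equal value of 0.31 under RLE normalization (adjusted p = 0.0615), without the low-count filter (adjusted p = 0.0695) and with DESeq2 (adjusted p = 0.107), and also without replicate 1 (0.27, adjusted p = 0.128) or 2 (0.28, adjusted p = 0.302). In NPTN the groups overlap, and replicate numbers 1 and 3 differed 1.59-fold, against 1.26-fold between groups with the block.

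Of 9 genes of plasminogen activation, the process S100A10 takes part in, 8 were tested: 1 rose, 3 fell and 4 did not pass with the block, with a median of -0.12. Over all genes tested, 25.1% were called and the median was 0.02. SERPINB2, an inhibitor of plasminogen activators, fell by 0.93 on the log2 scale (SE 0.19, edgeR adjusted p = 0.00387), with 102 ± 36.7 CPM in ACSS2 shRNA and 213 ± 110 CPM in control cells (SD, n = 3 each). PLGRKT, a plasminogen receptor, fell by 0.86 (adjusted p = 0.00231), and SERPINE2, another protease inhibitor, rose by 0.63 (adjusted p = 0.00216). PLAT, the tissue plasminogen activator, fell by 0.44 (adjusted p = 0.0248) but varied more by replicate number than by group, with 214, 719 and 1841 CPM in ACSS2 shRNA replicates 1, 2 and 3 and 305, 893 and 2589 CPM in control replicates 1, 2 and 3. The PLAT call was lost without replicate 2 (-0.53, adjusted p = 0.125) or replicate 3 (-0.41, adjusted p = 0.0807). In SERPINB2, PLGRKT and SERPINE2 the groups overlap too. Between numbers 1 and 3 they differed 2.50-fold, 1.98-fold and 1.91-fold, in this order. Between groups, with the block, the folds were smaller, at 1.91, 1.81 and 1.55.

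Of 26 other EF-hand calcium sensors, such as the calmodulins, 3 rose, 3 fell and 20 did not pass with the block, with a median of -0.02. Over all genes tested, 25.1% were called and the median was 0.02. GCA (grancalcin) fell by 0.72 on the log2 scale (edgeR adjusted p = 0.0112) and ACTN4, an actin crosslinker, fell by 0.44 (adjusted p = 0.0248). In GCA the groups overlap, and replicate numbers 1 and 3 differed 1.887-fold, against 1.645-fold between groups with the block. RCN1 and SDF4, which bind calcium in the secretory pathway, each rose by 0.41 (edgeR adjusted p = 0.0201 and 0.0207), and in SDF4 the groups overlap. Without replicate 2 none of these calls held, with -0.68 for GCA (adjusted p = 0.0797), -0.48 for ACTN4 (0.204), 0.34 for RCN1 (0.251) and 0.32 for SDF4 (0.274), and those of ACTN4 (-0.45, adjusted p = 0.0836) and SDF4 (0.38, 0.0789) were also lost without replicate 3. Of 20 genes of calcium entry and stores, 19 were tested, and 4 rose, 3 fell and 12 did not pass, with a median of 0.22, against the same 25.1% and 0.02 over all genes. ATP2B4, a calcium pump of the plasma membrane, fell by 1.14 on the log2 scale (adjusted p = 0.000133), with 24.6 ± 5.56 CPM in ACSS2 shRNA and 53.3 ± 5.37 CPM in control cells (SD, n = 3 each). STIM1, the calcium sensor of the endoplasmic reticulum, fell by 0.75 (adjusted p = 0.00242). ORAI3, a channel that STIM1 opens, rose by 0.77 (adjusted p = 0.0058, and 0.49 with adjusted p = 0.0946 without replicate 2). ITPR1, a calcium release channel, rose by 0.54 (edgeR adjusted p = 0.00362). In ITPR1 the groups overlap, and the replicate numbers differed (edgeR F test over the numbers, adjusted p = 0.0057).

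The genes whose log2 CPM was most like that of S100A16 over the 6 libraries, compared with 10694 genes that averaged 5 CPM or more, were TTC31 (Pearson r = 0.994), LONP2 (0.987), ACVR1B (0.986), TIMM17B (0.986) and NEK6 (0.984). These values describe 6 libraries in 2 groups and have no test. All 5 fell with the block, TIMM17B the most (-1.73, edgeR adjusted p = 7.29e-06) and LONP2, a peroxisomal protease, the least (-0.79, adjusted p = 0.000856). S100A16 separates the groups without overlap, so genes picked for likeness to it had to be lower too. Their direction and adjusted p-values restate that choice. Among the members with a mean of at least 5 CPM, the same correlation with S100A16 was -0.73 for S100A10, -0.67 for S100A11, -0.35 for S100A3 and S100A6 and -0.28 for S100A13.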

How the data were processed

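RNA was measured in 6 libraries by oligo(dT) RNA-seq on a BGI platform, per the labels' protocols. RSEM, Bowtie2 and HISAT are listed in the submitters' processing notes. Their versions, and the gene annotation, are not given in the labels and headers. The table's chromosome accessions belong to GRCh38. The authors deposited expected counts, the estimated reads per gene, of which 10.47% to 13.01% per library were not whole and were rounded here. The authors also deposited TPM, which scales reads per gene length. A log2 fold change, p-value and q-value per gene come from the authors' own comparison of the groups, per the file headers. Before use, 565 spilled annotation lines were left out and 26 gene symbols that had become dates were restored from gene IDs.

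Counts were tested in R 4.3.3 with edgeR 4.0.16 (TMM, filterByExpr with minimum count 10 and minimum total 15, quasi-likelihood F test, Benjamini-Hochberg over the 13003 genes left, threshold 0.05). The filter dropped S100A14. The fit without a block came from the groups alone. The labels' batch tag pairs the libraries, so the fit with the replicate number as a block is given beside it. Deviations from group means correlated across genes by 0.716, 0.494 and 0.740 between libraries of one number, against -0.00998 at most between different numbers. Such deviations cancel within a group, so the lower values between different numbers are partly built in. The biological coefficient of variation was 26.6% without and 11.8% with the block. Standard errors were derived from each fold change and its F statistic. Alternatives used DESeq2 1.42.0, limma 3.58.1 on log2(TPM + 1) or log2(TPM + 0.1), RLE normalization, no filter, and libraries left out.

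Members, gene lists and alternatives were chosen with earlier results of these data known. Named were all members, ACSS2, other S100 genes with reads, up to 4 called genes per list with the largest change in the block fit and a mean of at least 5 CPM, and the 5 genes most correlated with S100A16. ANXA2 and MRPL9 were added after their values were seen, and 1 gene the rule names is not reported here. Promoters are from RefSeq (all 10 members matched) and 3′ UTRs from GENCODE v29.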

Additional observations from a re-analysis of the deposited data

How the results depend on the processing

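S100A16 stayed between -1.63 and -1.37 under every alternative, and passed under all of them with the replicate block. Without the block it was not called once any library was left out (0 members called in all 6 cases), and 0 to 6 genes were then called in all, against 9. That count was 39 without the low-count filter and 487 with DESeq2, which also called 8 list genes against 0. With the block, leaving out a replicate number gave 1581 to 3109 genes against 3265, 1 to 4 members against 4, and 15 to 31 list genes against 32; the lowest values came without replicate 2, which ended the calls of S100A3, S100A10 and S100A11, and the cause was not tested. On the TPM scale with the block, 2302 genes were higher and 1071 lower, against 1657 and 1608 on counts.

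Some small changes turned direction when a library was left out, and none of these passed. Without the block S100A4 ranged from -0.20 to 0.39, S100A6 from -0.02 to 0.12, S100A13 from -0.02 to 0.12, S100P from -0.90 to 0.33 and PLAT from -1.44 to 0.62. With the block S100A4 ranged from -0.23 to 0.56, S100A6 from -0.02 to 0.12 and S100P from -0.36 to 0.17. Of 99 member values without the block, 86 kept direction and side of the threshold, and of 72 with it, 63 did. With 3 libraries a group and as few as 14 counts for S100A2 and 8 for S100P in a library, small changes of the low members cannot be resolved. Counting error and replicate spread enter the tests together, and without the block the differences between the batch tags enter them too.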
